A study of Saccharomyces cerevisiae with 12 samples.

Results

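The genes described here are the TIP1, TIR and DAN mannoprotein genes of budding yeast, chosen by name as TIP1, TIR1, TIR2, TIR3, TIR4, DAN1 and DAN4. All 7 names were found among the 7126 genes of the deposited table. The samples were Saccharomyces cerevisiae of the BY4741 background, a laboratory haploid, in 4 groups of 3 RNA-seq libraries each. These were slt2 mutant cells given poacic acid at 100 µg/ml for 1 h, slt2 cells without it, wild-type cells given the same treatment, and wild-type cells without it. The slt2 mutant lacks the MAP kinase of the cell wall integrity pathway, and poacic acid is a plant stilbenoid that binds the glucan of the yeast wall. The labels give no temperature, oxygen supply, cold step or medium, and nothing in them says that any culture was chilled or deprived of oxygen. They name the mutant by its gene alone, so whether its 3 cultures came from a single clone is not given in the sources used here.

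Mannoproteins form the outer layer of the yeast wall. Those of the Tip1 and Tir family are rich in serine and threonine, carry a lipid anchor signal at the C terminus and become linked to wall glucan. TIP1 and TIR1 are known as genes induced by a drop in temperature, and the TIR and DAN genes as genes kept low in air and switched on when oxygen runs out, when their products take the place of aerobic wall proteins such as Cwp1 and Cwp2. In air, Rox1, Mot3 and the Tup1-Cyc8 corepressor hold DAN and TIR genes down. When oxygen runs out, Upc2 drives them through a promoter element named AR1.

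The genes are small relatives of each other, and a stretch of 60 coding bases is shown for all 7 because it shows what they share and where they part. It was read from the RefSeq R64 genome, the build of the deposited table, and begins 241 to 253 bases into each coding sequence. Capitals mark the 18 columns with the same base in every gene.
TIP1: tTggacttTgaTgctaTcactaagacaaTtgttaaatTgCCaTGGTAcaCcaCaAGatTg
TIR1: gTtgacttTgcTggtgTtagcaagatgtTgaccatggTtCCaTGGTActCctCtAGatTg
TIR3: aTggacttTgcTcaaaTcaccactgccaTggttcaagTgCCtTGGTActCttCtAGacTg
TIR2: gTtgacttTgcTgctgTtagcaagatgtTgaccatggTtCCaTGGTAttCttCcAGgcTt
TIR4: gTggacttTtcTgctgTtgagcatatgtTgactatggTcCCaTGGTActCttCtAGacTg
DAN4: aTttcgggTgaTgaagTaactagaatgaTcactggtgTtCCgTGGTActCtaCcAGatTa
DAN1: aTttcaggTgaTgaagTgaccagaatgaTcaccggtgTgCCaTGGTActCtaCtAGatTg
The shared letters cluster in the right-hand part. DAN1 and DAN4 read nearly alike here, and so do TIR1 and TIR2. Identity was counted over the bases that aligned between 2 coding sequences, so unaligned bases were left out. TIR1 and TIR2 were the closest pair at 78.5% identity, with a longest identical run of 40 bases. The most distant pair was TIR1 and DAN4 at 55.0%, over 725 aligned bases of a DAN4 of 3486. TIP1 and TIR1, the most abundant transcripts of the family, were 68.0% identical. No window of 50 bases from any of the 7 genes occurred elsewhere in the genome, so a read of that length would have no perfect match in another gene. Windows repeated within a gene made up 13% of TIR1, 20.2% of TIR4 and 19.9% of DAN4, and how repeated matches were counted is not given in the sources used here.

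In R64 coordinates, TIP1 (YBR067C) lies on chromosome II at 372103 to 372735 on the minus strand, and TIR1 (YER011W) on chromosome V at 175248 to 176012 on the plus strand. TIR3 (YIL011W) lies on chromosome IX at 333727 to 334536, plus strand. TIR4 (YOR009W, 344335 to 345798, plus strand) and TIR2 (YOR010C, 346195 to 346950, minus strand) face each other on chromosome XV with 396 bases between them. AUS1, a sterol importer used without oxygen, lies on the far side of TIR2. DAN1 (YJR150C, 708811 to 709707) and DAN4 (YJR151C, 712255 to 715740) lie side by side on the minus strand of chromosome X, 2547 bases apart. None of the 7 overlapped another gene of the table on either strand.

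Upstream sequence is shown for the most abundant members, TIP1 and TIR1, and for TIR4, DAN4 and DAN1, the members with an AR1 match, as the 300 bases before the start codon in the direction of the gene. These are chrII:372736-373035 (minus) for TIP1, chrV:174948-175247 (plus) for TIR1, chrXV:344035-344334 (plus) for TIR4, chrX:715741-716040 (minus) for DAN4 and chrX:709708-710007 (minus) for DAN1. Capitals mark matches, on either strand, to AR1 (TCGTTCAG or TCGTTTAG), to the sterol element bound by Upc2 and Ecm22 (TCGTATA) and to the Rox1 core (ATTGTTC).
TIP1: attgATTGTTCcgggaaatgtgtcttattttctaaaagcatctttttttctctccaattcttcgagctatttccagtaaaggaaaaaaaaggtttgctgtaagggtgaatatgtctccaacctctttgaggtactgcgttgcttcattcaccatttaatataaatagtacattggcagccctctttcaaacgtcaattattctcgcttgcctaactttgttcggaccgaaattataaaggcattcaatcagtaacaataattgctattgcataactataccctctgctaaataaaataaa
TIR1: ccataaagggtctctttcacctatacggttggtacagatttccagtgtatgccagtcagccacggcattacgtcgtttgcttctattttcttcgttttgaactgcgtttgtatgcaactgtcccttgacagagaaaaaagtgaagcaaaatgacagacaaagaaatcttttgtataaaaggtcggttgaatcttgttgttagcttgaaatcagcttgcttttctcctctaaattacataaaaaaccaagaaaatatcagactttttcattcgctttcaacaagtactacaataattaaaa
TIR4: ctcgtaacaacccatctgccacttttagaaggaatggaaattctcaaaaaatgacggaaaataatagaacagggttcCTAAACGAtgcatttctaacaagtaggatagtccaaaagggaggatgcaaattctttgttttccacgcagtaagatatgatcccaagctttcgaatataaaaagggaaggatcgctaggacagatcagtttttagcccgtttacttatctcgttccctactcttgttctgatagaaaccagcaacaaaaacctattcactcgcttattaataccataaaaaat
DAN4: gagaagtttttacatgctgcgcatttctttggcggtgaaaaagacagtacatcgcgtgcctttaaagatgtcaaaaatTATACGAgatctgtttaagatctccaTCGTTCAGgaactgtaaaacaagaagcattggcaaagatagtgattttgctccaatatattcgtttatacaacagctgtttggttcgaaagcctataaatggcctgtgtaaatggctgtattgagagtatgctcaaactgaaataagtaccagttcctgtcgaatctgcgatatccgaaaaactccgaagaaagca
DAN1: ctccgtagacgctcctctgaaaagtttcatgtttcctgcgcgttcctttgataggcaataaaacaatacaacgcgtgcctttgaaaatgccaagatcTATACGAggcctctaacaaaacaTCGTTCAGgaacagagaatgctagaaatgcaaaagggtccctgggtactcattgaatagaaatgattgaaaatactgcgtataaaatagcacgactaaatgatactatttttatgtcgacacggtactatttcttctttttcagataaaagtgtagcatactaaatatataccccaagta
DAN4 and DAN1 carried the same arrangement, a sterol element on the minus strand followed by an AR1 match on the plus strand. TIR4 held AR1 alone, on its minus strand, and TIP1 held a Rox1 core near the far end of the window, 296 to 290 bases before the start. TIR1 held no match in this window.

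AR1 was found in 3 of the 7 windows and in 1.80% of the 6663 windows of this length upstream of coding genes. AR1 is known as the element that drives genes of this family, so its count here is a description and no test of enrichment. The sterol element was found in 2 of 7 (DAN4 and DAN1), against 4.47% of all windows. The Rox1 core was found in 3 of 7 (TIP1, TIR3 and TIR2), against 7.25%. TIR3 held 2 such cores. The general stress element (AGGGG) was in 0 of 7, against 21.9% of all windows. The Rlm1 element, the site of the transcription factor downstream of Slt2, was searched as CTA and TAG around a short run of A or T. It was also in 0 of 7, against 1.14%. Overlapping matches were each counted, and the 3 motifs with matches did not overlap in these genes. With 600 bases, a length chosen after seeing the data, TIR1 also held a sterol element and a Rox1 core, TIR3 a sterol element, DAN4 a Rox1 core and DAN1 a further AR1 match, 412 to 405 bases before the start. Of all windows of 600 bases, 8.26% held the sterol element, 13.7% the Rox1 core and 3.64% AR1. A match is a description of letters, and none of these data measured binding.

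**Figure D1:**
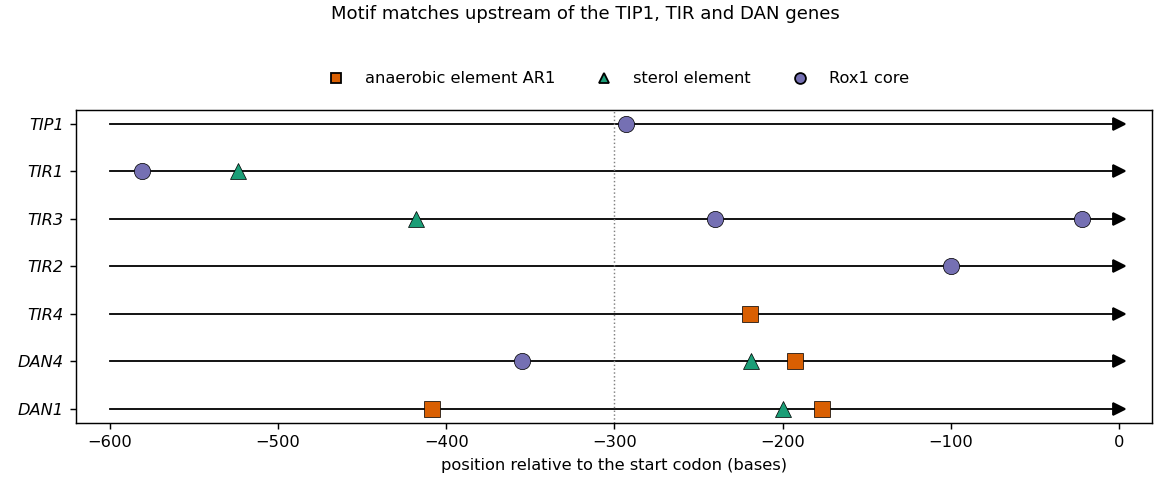
Motif matches on a scale of bases before the start codon (x axis) for the 7 genes (rows), with squares for AR1, triangles for the sterol element and circles for the Rox1 core, and a dotted line at 300 bases. DAN4 and DAN1 show a triangle followed by a square, and TIR1 has matches only beyond the dotted line.

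Expression was given as RPKM, reads scaled to gene length and to library size, which allows levels of genes of different length to be compared. The library totals recovered from the steps of the values were 3462649 to 10542491 reads, so that 1 read in a gene of 1 kb was worth 0.0949 to 0.289 RPKM. SLT2 was listed at 0 in 4 slt2 libraries and reached 0.198 and 0.145 RPKM in slt2 replicates 2 and 3 with poacic acid, against 194 to 236 RPKM in treated and 42.1 to 49.99 RPKM in untreated wild-type libraries. Ribosomal RNA made up 5.64 to 5.93% of listed reads in treated and 4.54 to 6.21% in untreated slt2 libraries. It made up 2.48, 0.0979 and 4.84% in treated wild-type libraries and 0.682, 0.0850 and 0.345% in untreated ones. The share was thus higher in slt2, apart from treated wild-type replicate 3, which lay within the slt2 range, and 2 of the 3 treated wild-type libraries lay above the untreated ones. Its part in the strain differences and in the wild-type response below was not tested. With values scaled to the sum of protein-coding genes the strain differences of all 7 genes kept their signs, and TIR1 remained called in wild type (−0.93, limma, adjusted p = 0.0119). In RNA of whole cultures, fewer cells expressing a gene and less RNA per cell cannot be told apart.

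The 7 genes lay far apart in level. By mean over the 12 libraries, TIP1 (162 RPKM) held rank 547 and TIR1 (109 RPKM) rank 807 among 6692 protein-coding genes. TIR3 stood at 18.1 RPKM (rank 3724). TIR2 at 3.86, TIR4 at 3.20, DAN4 at 1.35 and DAN1 at 1.03 RPKM were in the lowest part of the transcriptome, between ranks 5686 and 6103. TIP1 and TIR1 together made up 83.9 to 94.9% of the summed RPKM of the family in each library. TIP1, TIR1 and TIR3 did not overlap with the genes below them in any group, except that TIP1 and TIR1 overlapped in treated and in untreated slt2 cells. TIP1 was 0.748 to 1.46 times TIR1 in treated slt2 libraries, 1.01 to 2.13 times in untreated slt2 libraries, 1.80 to 2.34 times in treated wild-type libraries and 1.499 to 1.80 times in untreated wild-type libraries. TIR2 and TIR4 overlapped in all groups but treated wild type, and DAN4 and DAN1 overlapped in all groups but that one.

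**Figure D2:**
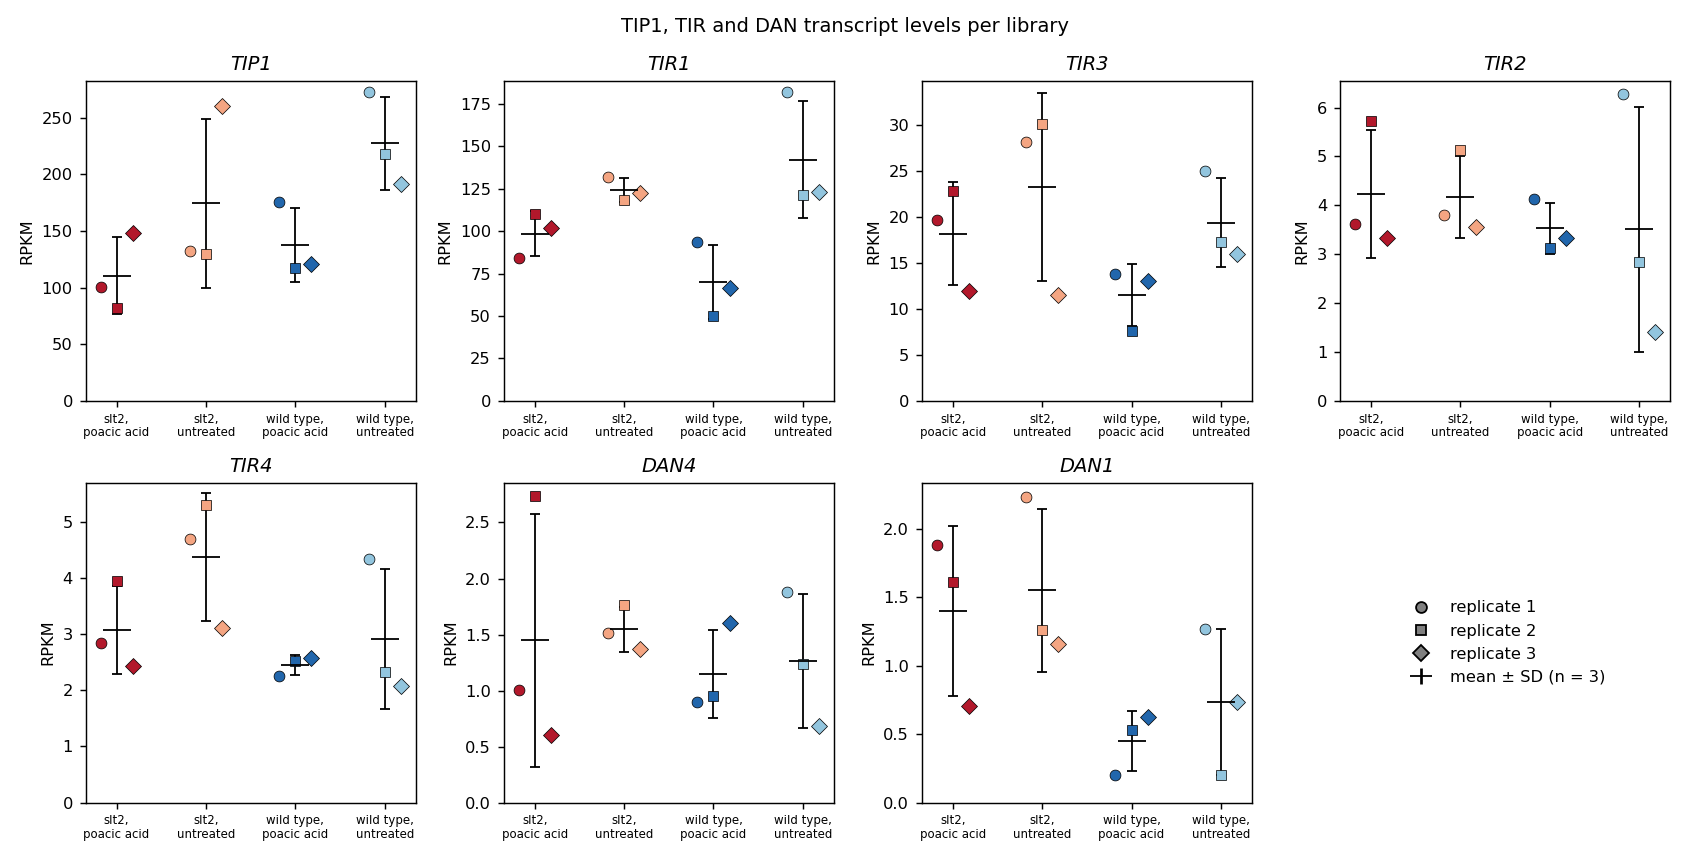
RPKM (y axis) of each gene in the 12 libraries, by group (x axis), with symbols for the replicate number and bars for mean ± SD (n = 3). In TIR1, the 3 treated wild-type libraries lie at 49.97 to 93.4 RPKM, below the untreated ones at 121 to 182 RPKM. DAN1 and DAN4 stay under 3 RPKM in every library.

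TIR1, a cold-inducible gene, was the member called lower with poacic acid in wild-type cells in the limma fit with a mean for each group. TIP1 and TIR3 also had lower means there and are described below. The levels of TIR1 were 93.4, 49.97 and 66.8 RPKM in treated wild-type libraries, against 182, 121 and 122.7 RPKM in untreated ones. Every treated library lay below every untreated library, and replicate 1 was the highest of both groups. The TIR1 means were 70.1 ± 21.9 RPKM with poacic acid and 142 ± 34.5 RPKM without it (SD, n = 3 each). The log2 fold change was −1.03 on the log2(RPKM + 1) scale (SE 0.21, 95% interval −1.47 to −0.58, limma, adjusted p = 0.0101). TIR1 was 1 of 7 members called in wild type, against 5.83% of all 6222 tested genes, of which 1.96% were called lower. Without untreated wild-type replicate 1 the call was lost (−0.84, limma, adjusted p = 0.0538), and without any of the other 5 libraries it was kept, with adjusted p between 0.00224 and 0.0413.

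In slt2 cells TIR1 had 84.1, 110 and 102 RPKM with poacic acid, against 132, 118 and 122 RPKM without it. Again the groups did not overlap, but the distance was small. Its log2 fold change of −0.34 (SE 0.21, interval −0.78 to 0.11) did not pass in limma (adjusted p = 0.378). The slt2 response minus the wild-type response was 0.69 (interval 0.06 to 1.32, limma, unadjusted p = 0.0333, adjusted p = 0.355), so a difference between the strains was not called either.

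TIP1, the most abundant member, had lower means with poacic acid in both strains. It had 101, 82.1 and 148 RPKM in treated slt2 libraries, against 133, 129 and 261 RPKM in untreated ones. In wild type it had 175, 117 and 120 RPKM with poacic acid, against 272, 218 and 192 RPKM without it. The wild-type groups did not overlap, while in slt2 treated replicate 3 lay above the 2 lower untreated libraries. Within each replicate number the treated library was the lower in 3 of 3 cases in slt2 and in 3 of 3 in wild type. The log2 fold changes were −0.62 (SE 0.28, interval −1.24 to −0.00048) in slt2 and −0.73 (SE 0.28, interval −1.35 to −0.11) in wild type, with adjusted p of 0.223 and 0.156 in limma, so neither passed.

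By the design text every biological sample gave a library of either condition, so replicate numbers within a strain were also taken as shared cultures. With culture as a block in limma, TIP1 passed in slt2 (adjusted p = 0.00733) and in wild type (adjusted p = 0.00378), and TIR3 passed in wild type (adjusted p = 0.0299). TIR1 remained called in wild type (adjusted p = 0.00127) and not in slt2 (adjusted p = 0.135). That made 1 of 7 members in slt2 and 3 of 7 in wild type, all lower with poacic acid, against 4.44% and 4.95% of all tested genes called lower by the same fit. In the fit without the block, the TIP1 log2 fold change in slt2 was −0.29 when untreated replicate 3, the library at 261 RPKM, was left out. In that same fit the TIP1 responses differed between the strains by 0.11 (interval −0.76 to 0.99, limma, adjusted p = 0.939). With the block this difference did not pass either (limma, adjusted p = 0.797).

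TIR3, whose product is needed for growth without oxygen, had 19.7, 22.8 and 11.9 RPKM in treated slt2 libraries, against 28.1, 30.2 and 11.5 RPKM in untreated ones. In wild type it had 13.8, 7.61 and 13.1 RPKM with poacic acid, against 24.97, 17.2 and 16.0 RPKM without it. In both slt2 groups replicate 3 lay far below the others, and the wild-type groups did not overlap. The log2 fold changes were −0.28 (interval −1.04 to 0.49) in slt2 and −0.72 (interval −1.49 to 0.04) in wild type. Neither passed in limma without the culture block (adjusted p = 0.718 in slt2 and 0.265 in wild type).

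TIR2 and TIR4, the convergent neighbours, stayed low in every group. TIR2 had 3.61, 5.73 and 3.34 RPKM in treated and 3.81, 5.14 and 3.56 RPKM in untreated slt2 libraries. In wild type it had 4.12, 3.14 and 3.32 RPKM with poacic acid, against 6.28, 2.84 and 1.40 RPKM without it. The untreated wild-type libraries spanned the whole range of the gene, and all groups overlapped. TIR4 had 2.84, 3.95 and 2.44 RPKM in treated slt2 libraries, against 4.71, 5.31 and 3.11 RPKM in untreated ones. It had 2.25, 2.53 and 2.57 RPKM in treated wild-type libraries, against 4.35, 2.32 and 2.08 RPKM in untreated ones. TIR4 was lower with poacic acid under all 3 replicate numbers in slt2, but the groups overlapped and the log2 fold change of −0.39 (interval −0.98 to 0.20) did not pass in limma (adjusted p = 0.444). These values rested on 8 to 50 reads per library for TIR2 and 17 to 67 for TIR4.

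The DAN genes, known as strictly anaerobic genes, were the lowest members by mean, and DAN1 was near the limit of detection. DAN4, a longer gene, rested on 10 to 69 reads per library and 376 in all. DAN4 had 1.01, 2.73 and 0.603 RPKM in treated slt2 libraries, against 1.51, 1.76 and 1.37 RPKM in untreated ones. In wild type DAN4 had 0.894, 0.952 and 1.60 RPKM with poacic acid, against 1.88, 1.23 and 0.683 RPKM without it. No group of DAN4 stood apart, and its intervals reached from −0.91 to 0.61 for the slt2 response and from −0.82 to 0.70 for the wild-type response. DAN1 had 1.88, 1.61 and 0.704 RPKM in treated and 2.23, 1.26 and 1.16 RPKM in untreated slt2 libraries. In wild type DAN1 had 0.204, 0.529 and 0.622 RPKM with poacic acid, against 1.27, 0.200 and 0.737 RPKM without it. These are 1 to 16 reads per library and 77 in all, and 3 reads of DAN1 were worth 0.317 to 0.966 RPKM. DAN1 passed the filter on low values (1 RPKM in 3 libraries) through slt2, where 5 of 6 libraries reached 1 RPKM, against 1 of 6 in wild type. Its values in the strains are therefore given as a description. No response of either DAN gene to poacic acid was detected, within intervals of −0.86 to 0.66 in slt2 and −0.98 to 0.54 in wild type for DAN1.

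No member was called in slt2, against 8.45% of the 6222 tested genes in limma (adjusted p under 0.05). At an unadjusted limma p under 0.05 the count in slt2 was 1 of 7 members (TIP1), against 22.4% of all tested genes. In wild type it was 2 of 7 (TIP1 and TIR1), against 21.5%. Groups without overlap, with every treated library below every untreated one, were found for 1 of 7 members in slt2 (TIR1), against 12.8% of tested genes. In wild type they were found for 3 of 7 (TIP1, TIR1 and TIR3), against 9.39%. No member lay above without overlap in slt2, against 18.2% of tested genes, or in wild type, against 13.2%. The median log2 fold change of the 7 genes was −0.28 in slt2 and −0.22 in wild type, beside 0.03 and 0.02 over all tested genes. The estimated change was below 0 for 7 of 7 members in slt2, with TIR2 at −0.00046, against 2808 of the 6222 tested genes. In wild type it was below 0 for 6 of 7, TIR2 being the exception at 0.15, against 2896 of 6222. With values scaled to the sum of protein-coding genes, TIR2 in slt2 (0.0564) and DAN4 in wild type (0.00083) also stood above 0. For the difference of responses 0 of 7 were called, against 1.72% of tested genes, and 1 (TIR1) had an unadjusted p under 0.05, against 11.9%.

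**Figure D3:**
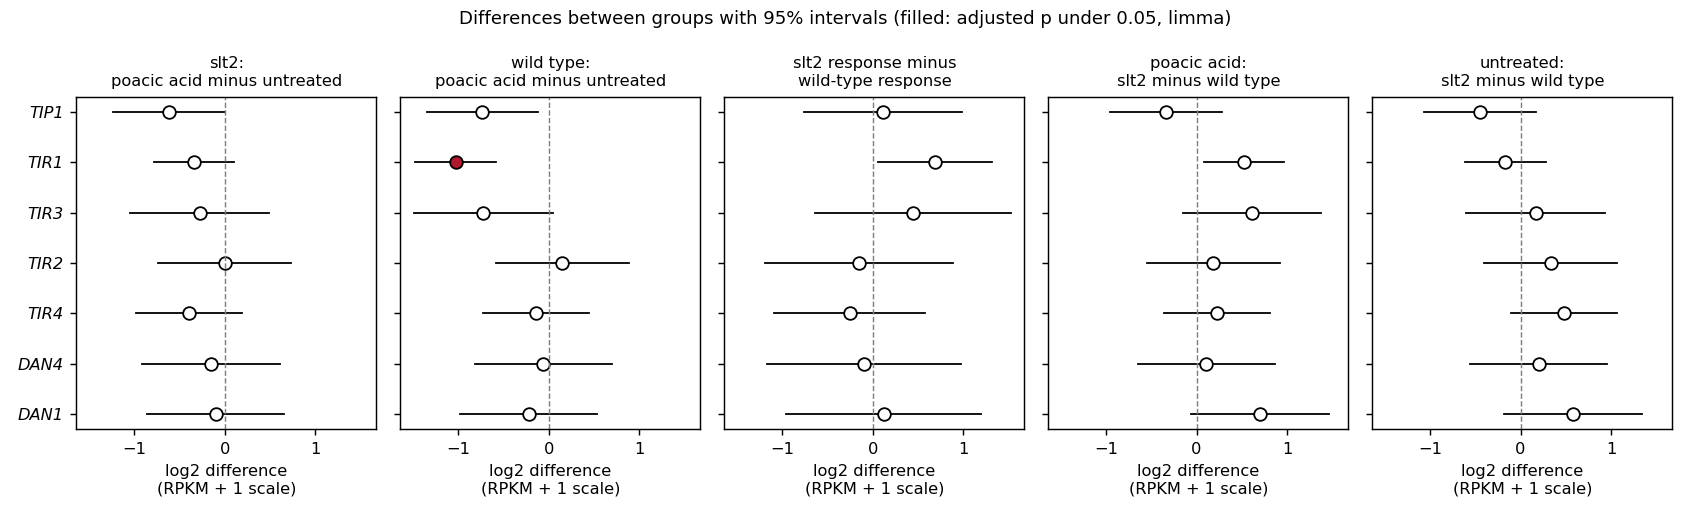
Log2 differences on the log2(RPKM + 1) scale (x axis) of the 7 genes (rows) in the 5 comparisons (panels), with 95% intervals from limma; a filled point marks adjusted p under 0.05. TIR1 in wild type (−1.03) is the filled point, and the intervals of DAN4 and DAN1 cross 0 in all panels.

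Between the strains under poacic acid, 0 of 7 members were called in limma, against 8.21% of tested genes. TIR1 averaged 98.6 ± 13.2 RPKM in slt2 and 70.1 ± 21.9 RPKM in wild type (SD, n = 3 each), a log2 difference of 0.52 (interval 0.08 to 0.97, limma, unadjusted p = 0.0241, adjusted p = 0.147). It was the member with an unadjusted p under 0.05 there, against 22.9% of tested genes. TIR1 passed without treated wild-type replicate 1, the library of 93.4 RPKM (0.75, limma, adjusted p = 0.0363). DAN1, which entered the test through its slt2 libraries, had 1.40 ± 0.618 RPKM in slt2 and 0.452 ± 0.219 RPKM in wild type, from 1 to 13 reads per library. TIP1 ran the other way, at 110 ± 34.1 RPKM in slt2 and 138 ± 32.8 RPKM in wild type, a log2 difference of −0.33 (interval −0.95 to 0.28). Those of TIR3, TIR4, TIR2 and DAN4 were 0.61, 0.22, 0.19 and 0.11, all with intervals across 0.

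Without the compound, 0 of 7 members were called between the strains in limma, against 1.75% of tested genes, and 0 had an unadjusted p under 0.05, against 24.3%. TIP1 averaged 174 ± 74.9 RPKM in slt2 and 227 ± 41.2 RPKM in wild type, and TIR1 124 ± 6.98 RPKM in slt2 and 142 ± 34.5 RPKM in wild type (SD, n = 3 each). The groups of both genes overlapped. The log2 differences were 0.48 for TIR4 (interval −0.11 to 1.07) and −0.45 for TIP1 (interval −1.06 to 0.17). The median of the 7 genes was 0.20 without the compound and 0.22 with it, beside −0.08 and −0.07 over all tested genes. These medians count DAN1 (0.58 without and 0.70 with the compound), which passed the filter through its slt2 libraries, so they are given as a description.

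Some aerobic wall mannoproteins were higher with poacic acid. Of the 7 listed (CWP1, CWP2, CCW12, CCW14, SED1, SPI1 and TOS6), 2 were called higher with poacic acid in slt2 (CWP1 and SPI1) and 3 in wild type (CWP1, SED1 and CCW14), and 0 were called lower in either strain. Of all 6222 tested genes, 329 were called higher in slt2 and 241 in wild type. CWP1, a wall protein found at birth scars, averaged 53.5 RPKM in treated and 17.3 RPKM in untreated slt2 cells, and 691 RPKM in treated and 115 RPKM in untreated wild-type cells. Its log2 fold changes were 1.71 in slt2 and 2.58 in wild type (limma, adjusted p = 0.0120 and 0.00114), and their difference was not called (limma, adjusted p = 0.553). SED1, a major wall protein of stationary and stressed cells, had 2576 RPKM in treated and 665 RPKM in untreated wild-type cells (1.92, limma, adjusted p = 0.00012), and its response was lower in slt2 by a log2 difference of −1.57 (limma, adjusted p = 0.0163). SPI1, a weak-acid-induced wall protein, was higher in treated slt2 cells (35.7 RPKM) than in treated wild-type cells (11.7 RPKM; 1.54, limma, adjusted p = 0.00071). CCW14, an inner-wall glycoprotein, had a log2 fold change of 0.85 in wild type (limma, adjusted p = 0.0146), lost without treated wild-type replicate 3 or untreated wild-type replicate 2 (adjusted p of 0.0677 to 0.0824). With culture as a block 4 genes of this list were called for the difference of responses, SED1, CWP2 and CCW14 (log2 differences of −1.57, −0.57 and −0.86) lower in slt2 and SPI1 (1.12) higher. Of all tested genes 1.72% were called for this difference without the block, and more with it, as given in the closing section.

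Under poacic acid 3 of the 7 aerobic wall genes were called lower in slt2 than in wild type (CWP1, SED1 and CCW14) and 1 higher (SPI1), against 8.21% of tested genes called in either direction. Without it 2 were called lower (CWP1 and SED1), against 1.75% called in either direction. The log2 differences of CWP1 were −3.68 with the compound and −2.80 without it, and those of SED1 −2.52 and −0.95. Without the compound the SED1 call was lost when any of the 6 libraries was left out, and that of CWP1 when untreated slt2 replicate 1 was (limma, adjusted p = 0.0526). The 7 TIP1, TIR and DAN genes had 0 calls in either strain comparison.

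**Figure D4:**
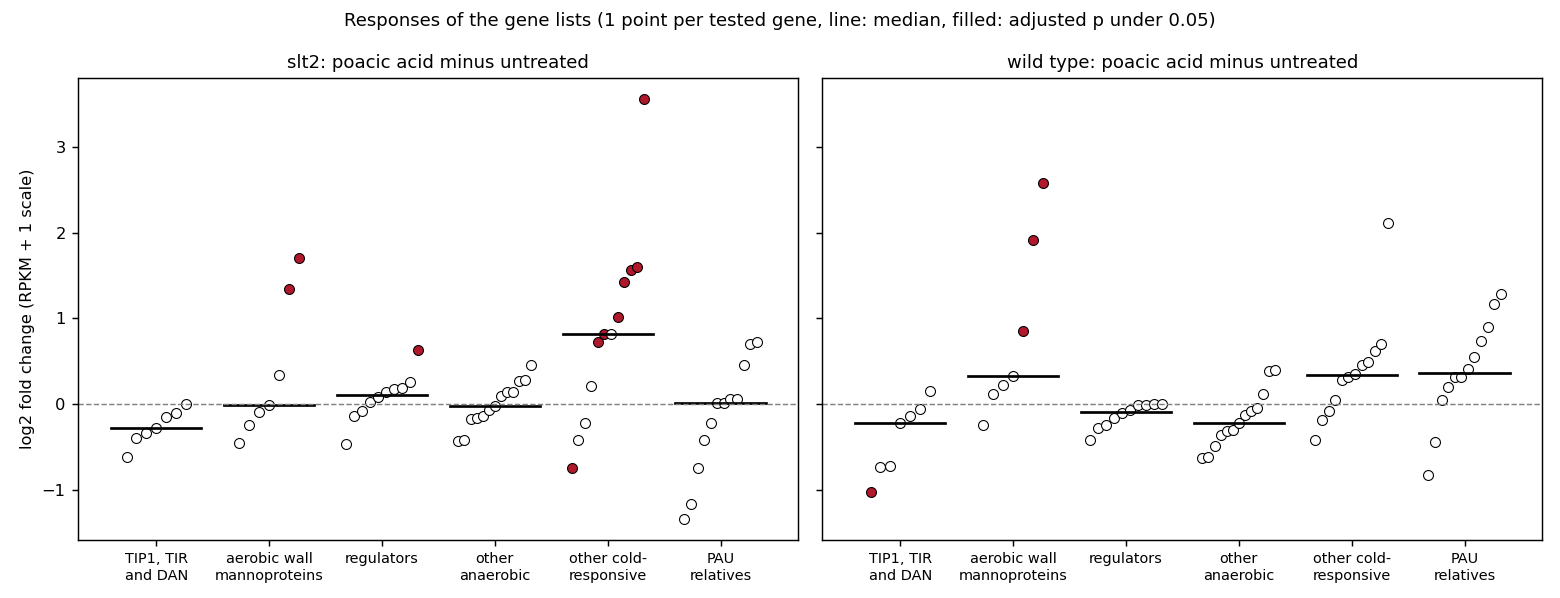
Log2 fold changes of the poacic acid response (y axis, log2(RPKM + 1) scale) in slt2 (left) and wild type (right) for the genes of each list (x axis), 1 point per tested gene, bars at the median and filled points at adjusted p under 0.05 in limma. The TIP1, TIR and DAN genes have medians of −0.28 in slt2 and −0.22 in wild type, and CWP1 stands at 1.71 and 2.58 among the aerobic wall genes.

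Of the 10 regulators, 1 was called with poacic acid in slt2, against 8.45% of tested genes, and it was higher. In wild type 0 were called, against 5.83%. UPC2, the activator of anaerobic and sterol genes, averaged 40.5 ± 4.73 RPKM in treated and 25.6 ± 0.664 RPKM in untreated slt2 cells (0.63, limma, adjusted p = 0.00878). In wild type it averaged 22.3 ± 3.43 RPKM with and 22.2 ± 0.953 RPKM without the compound (SD, n = 3 each), a log2 fold change of −0.0040. The difference of these responses was 0.64 and did not pass (limma, adjusted p = 0.121). Under poacic acid UPC2 was higher in slt2 than in wild type (0.84, limma, adjusted p = 0.00086). HAP1, a haem-responsive activator, was also higher there, at 106 RPKM in slt2 and 70.6 RPKM in wild type (0.60, limma, adjusted p = 0.0263), a call lost without any of 3 libraries (treated slt2 replicates 1 and 2 and treated wild-type replicate 2, adjusted p of 0.0899 to 0.108). Of all tested genes 8.21% were called between the strains under poacic acid. Without the compound 0 regulators were called between the strains, against 1.75%.

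The other regulators were not called in any comparison. ROX1, the haem-dependent repressor, averaged 35.5 RPKM in treated and 31.5 RPKM in untreated slt2 cells, and 31.6 RPKM in treated and 40.4 RPKM in untreated wild-type cells. Its log2 fold change in wild type was −0.42 (interval −0.94 to 0.10). MOT3, its partner repressor, had 0.18 in slt2 and −0.07 in wild type. TUP1 and CYC8, the corepressor, lay between −0.24 and 0.01 in both strains. ECM22, the relative of UPC2, had 0.08 in slt2 and 0.0072 in wild type. SUT1, a regulator of sterol uptake, had −0.46 in slt2 and −0.28 in wild type. MGA2 and SPT23, membrane-bound activators of the fatty acid desaturase gene OLE1, lay between −0.16 and 0.14.

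Among 13 other genes known to be induced without oxygen or repressed by Rox1, 0 were called in the response of slt2 and 0 in that of wild type. Of all tested genes 8.45% and 5.83% were called. The medians of the list were −0.02 in slt2 and −0.22 in wild type. With culture as a block, OLE1 was called lower in slt2 (−0.41, limma, adjusted p = 0.0454) and AAC3, a mitochondrial ADP/ATP carrier, lower in wild type (−0.61, limma, adjusted p = 0.0363), both named after their values were seen. That fit called 4.44% of all tested genes lower in slt2 and 4.95% in wild type. Between the strains under poacic acid 3 of the 13 were called, against 8.21% of tested genes. ARE1, a sterol-esterifying enzyme (0.42, adjusted p = 0.0204), and ERG25, an ergosterol synthesis enzyme (0.72, adjusted p = 0.0206), were higher in slt2, and OLE1 was lower (−0.71, adjusted p = 0.00332; all limma). The ARE1 and ERG25 calls were each lost without any of 3 libraries (treated slt2 replicates 1 and 2 and treated wild-type replicate 1). Without the compound ARE1 was the gene called (0.47, limma, adjusted p = 0.0407), against 1.75% of tested genes. That call was lost when any of the 6 libraries was left out.

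Of the 12 other cold-responsive genes listed, 7 were called higher and 1 lower with poacic acid in slt2, against 8.45% of tested genes called in either direction. In wild type 0 were called, against 5.83%. The medians of the list were 0.82 in slt2 and 0.34 in wild type. The calls of 5 of the 7 higher genes (HSP12, HSP26, HSP42, HSP104 and TPS1) were lost without treated slt2 replicate 1 and also without treated slt2 replicate 2, which left 2 of the 7, GLC3 and TPS2. With culture as a block, 10 were called in slt2. The share of all tested genes called in either direction by that fit is not given here, so this count is a description. In wild type 1 was called with the block (NSR1, −0.42, limma, adjusted p = 0.0399), against 4.95% of all tested genes called lower. For the difference of responses the block gave 2 (GLC3 and HSP104, both higher in slt2), against 0 without it. Of all tested genes 1.72% were called for that difference without the block, and more with it. In slt2, GLC3, the glycogen branching enzyme, had 39.5 RPKM in treated and 11.99 RPKM in untreated cells (1.60, limma, adjusted p = 0.00045). TPS2, a trehalose synthesis enzyme, had 102 RPKM in treated and 33.4 RPKM in untreated slt2 cells (1.57, limma, adjusted p = 0.00052). NSR1, a nucleolar protein of ribosome assembly that is induced by cold, was the gene that was lower, at 293 RPKM in treated and 491 RPKM in untreated slt2 cells (−0.74, limma, adjusted p = 0.00125). Under poacic acid 5 were called higher in slt2 than in wild type (GLC3 and TPS2 and, named after their values were seen, HSP12, HSP26 and HSP104), and 1 lower (OLE1). Of all tested genes 8.21% were called there in either direction. The TPS2 call between the strains was lost without any of 5 of the 6 libraries (limma, adjusted p of 0.0608 to 0.146). Those of HSP12 and HSP26 were lost without treated slt2 replicate 1, treated slt2 replicate 2 or treated wild-type replicate 1 (limma, adjusted p of 0.0645 to 0.0997), so that any of these 3 omissions left 2 of the 5, GLC3 and HSP104. No gene of this list was called between the strains without the compound.

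The PAU genes, small relatives of the TIR and DAN proteins in the same family, were barely expressed. Of 24 in the table, 1 was at 0 in all libraries, 7 had a mean of at least 1 RPKM and 12 passed the filter on low values. The highest value of any of them in any library was 16.5 RPKM. None of the 12 was called in any comparison. With culture as a block 1 passed in slt2, PAU2, chosen after its value was seen (−1.33, limma, adjusted p = 0.0461). That fit called 4.44% of all tested genes lower in slt2. PAU genes are near-identical copies of each other, so the share of reads given to each is uncertain.

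Across the 12 libraries, the genes most like TIP1, TIR1 and TIR3 were sought among 5542 coding genes with a mean of at least 5 RPKM, by Pearson correlation of log2(RPKM + 1). For TIP1 they included RPL22A and TEF1 (r of 0.962 and 0.959), which encode a protein of the large ribosomal subunit and a translation elongation factor. For TIR1 they were RPL4B, a ribosomal protein gene with a near-identical copy, OPT1, an oligopeptide transporter, and GCN4, the activator of amino acid synthesis (r of 0.898, 0.896 and 0.886). For TIR3 they were LYS21, of lysine synthesis, PHO8, a vacuolar phosphatase, and UBC4, a ubiquitin-conjugating enzyme (r of 0.889, 0.869 and 0.862). The points share their libraries and groups and the scaling of each library, and the correlations are a description of 12 libraries in 4 groups.

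RPL22A was close to TIP1 also in the order of the libraries, with a Spearman correlation of 0.951. Its log2 fold changes were −0.37 in slt2 and −0.38 in wild type, against −0.62 and −0.73 for TIP1, and none of these passed in limma without the culture block. OPT1 was called lower with poacic acid in slt2 (−0.40, limma, adjusted p = 0.0475) and in wild type (−1.14, limma, adjusted p = 4.5e-05), and higher in slt2 than in wild type under the compound (0.74, limma, adjusted p = 0.00078). Its slt2 call was lost when any of the 6 libraries was left out. GCN4 was called lower in wild type (−0.46, limma, adjusted p = 0.0424), a call that was kept when treated wild-type replicate 1 was left out and lost without any of the other 5 libraries. None of the other 6 genes named was called in any comparison.

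**Figure D5:**
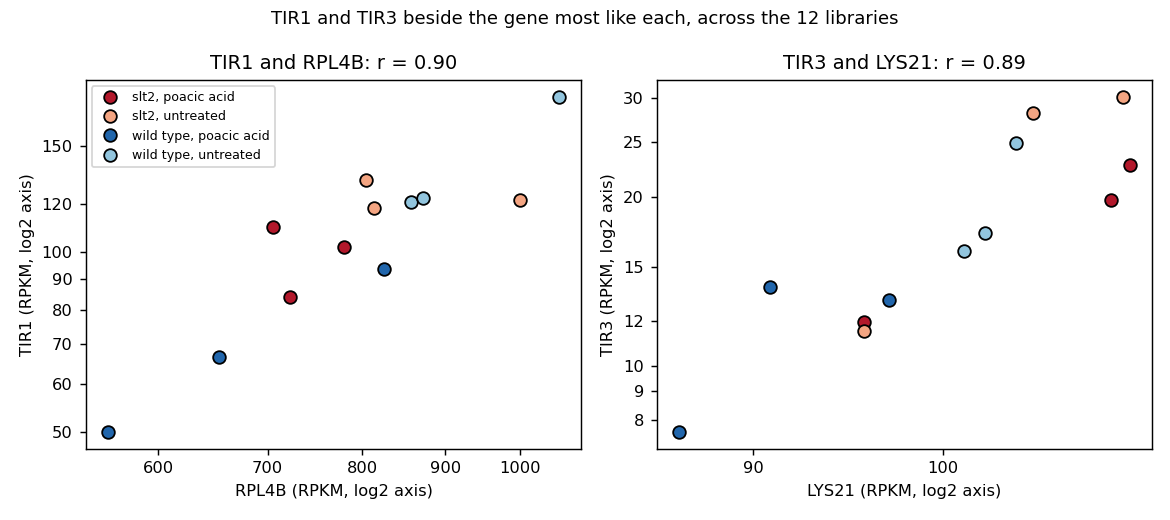
RPKM of TIR1 and TIR3 (y axes, log2) against the gene most like each, RPL4B and LYS21 (x axes, log2), 1 point per library, coloured by group. Treated wild-type replicate 2 is lowest in both panels and for both genes of each pair (r = 0.898 for TIR1 and 0.889 for TIR3).

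Among themselves the 7 genes fell into no single pattern. The most alike pairs were TIR3 and TIR4 (r = 0.764), DAN1 and TIR4 (r = 0.731), DAN4 and TIR4 (r = 0.731) and TIR2 and TIR4 (r = 0.729), the last of these being the convergent neighbours. TIR1 was closest to TIR3 (r = 0.684). TIP1 correlated with TIR1 at 0.566 and with the other 5 genes between −0.339 and −0.0901. DAN1 and DAN4, with the same arrangement of motifs, stood at 0.470. For the 4 genes of low level these values rest on few reads, and all are over the same 12 libraries.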

How the data were processed

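RNA from yeast cultures was sequenced as 12 libraries in 4 groups of 3. Per the labels' protocols, cells were diluted to an OD of 0.2, poacic acid followed at an OD of 0.5, and libraries were made from depleted total RNA with a directional kit. The labels give 1 h for the treatment and 2 h in the text on growth. The authors deposited a table of RPKM values with decimal commas, which were read as decimal points, and the build was R64 per the submitters' processing notes. The aligner, the counting program, the use of strand and the handling of reads with several matches are not named in any source used here. In the deposited table, 96.5 to 96.7% of values under 1000 reads were whole multiples of 1 read within 0.01 read, which gave the totals of 3462649 to 10542491 reads per library. These reads describe depth and were not tested.

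The 6222 genes that reached 1 RPKM in 3 or more libraries were fitted as log2(RPKM + 1) with limma 3.58.1 in R 4.3.3, with a mean for each group in a single fit of the 12 libraries, an intensity trend and robust variances. Log2 fold changes refer to that scale, on which low genes appear to change less. Adjusted p means the limma p after Benjamini-Hochberg adjustment over the 6222 genes, and a gene was called at an adjusted p under 0.05. The comparisons were the response to poacic acid in slt2 and in wild type, their difference, and the strain difference with and without the compound. All 7 members passed the filter. Sequences are RefSeq R64, and 6000 of the 6008 coding genes found there by locus tag had the table's start and end. The stretch of coding bases shown was picked from an alignment of the first part of each coding sequence with mafft 7.526. Identity between coding sequences was counted in pairwise alignments made with Biopython 1.88.

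Within a strain the replicate numbers were taken as cultures, from the design text, which says that each biological sample was run in both conditions but not that the number marks it. Deviations of same-numbered libraries from their group means correlated at 0.03, 0.23 and 0.33 in slt2 and at −0.14, 0.27 and −0.03 in wild type. With untreated libraries of another number, the treated ones reached at most 0.19, 0.03 and −0.05 in slt2. In wild type they reached at most 0.23, −0.13 and 0.23. The own number was thus not the best match for slt2 replicate 1 and wild-type replicates 1 and 3.

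The members and lists were chosen with earlier results of these data known. All members and regulators were named. From each other list up to 4 genes with the smallest adjusted p among those called were named, and for members with a mean of at least 5 RPKM the 3 genes most alike, of which 1 is not reported here. Alternatives covered the pseudocount (0.1 and 5), the filter, 2 other scalings, the variance model, library weights, the samples fitted, the block and each library left out.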

Additional observations from a re-analysis of the deposited data

Results flagged for a closer look

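Of the genes named above, SED1 and OPT1 had responses to poacic acid that differed between the strains by the test of the difference itself. For SED1 the slt2 response minus the wild-type response was −1.57 (limma, adjusted p = 0.0163), and the call was kept when any of the 12 libraries was left out. The same difference for OPT1 was 0.74 (limma, adjusted p = 0.0347), and it was lost when any of 9 of the 12 libraries was left out, with adjusted p of up to 0.0977. None of the 7 TIP1, TIR and DAN genes met this condition, and groups of 3 are too small for a search for outlying libraries.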

How the results depend on the processing

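Of 587 log2 fold changes of the 7 members recomputed under other settings, 552 kept their sign. With culture as a replicate block, members called numbered 1 in slt2 (against 0) and 3 in wild type (against 1), and genes called overall numbered 671 in wild type (against 363) and 179 for the difference of responses (against 107). Between the strains the replicate number is only a number, and a block on it changed no call of a member. Library quality weights gave 1137 calls in slt2 (against 526), 682 in wild type, 289 for the difference, 1375 between strains with the compound (against 511) and 1142 without it (against 109), with 1 member, DAN1, called between treated strains, the gene that passed the filter through its slt2 libraries. Fitting only the groups compared gave 181 in wild type, 330 between treated and 729 between untreated strains, and a fit without trend and robust variances gave 31 between untreated strains. Leaving out 1 library called no member in slt2 in any case, 0 to 1 members in wild type and 0 to 1 between treated strains, and 231 to 671 genes in slt2, 156 to 552 in wild type, 62 to 164 for the difference, 327 to 874 between treated and 3 to 45 between untreated strains. The cause of these shifts was not tested.

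Signs turned for values close to 0. With a pseudocount of 5 TIR2 in slt2 was 0.0034, with values scaled to the sum of protein-coding genes it was 0.0564 and DAN4 in wild type 0.00083, and that scaling moved the median of all genes in wild type to 0.12 (against 0.02). With library weights DAN1 in slt2 was 0.0301, and the differences of responses were −0.0606 for TIP1 and 0.0399 for DAN4. Leaving out 1 library, the slt2 response ranged over −0.20 to 0.13 for TIR2, −0.25 to 0.13 for DAN1 and −0.50 to 0.11 for DAN4. The wild-type response ranged over −0.23 to 0.57 for TIR2, −0.29 to 0.11 for TIR4 and −0.25 to 0.13 for DAN4. The difference of responses ranged over −0.12 to 0.44 for TIP1, −0.57 to 0.23 for TIR2, −0.10 to 0.36 for DAN1 and −0.45 to 0.16 for DAN4. Between treated strains the ranges were −0.0111 to 0.31 for TIR2 and −0.25 to 0.36 for DAN4, and between untreated strains −0.0698 to 0.59 for TIR3, −0.27 to 0.0229 for TIR1 and −0.0448 to 0.76 for TIR2. A window of 200 bases held the sterol element upstream of 0 members, against 2.88% of all windows. It held AR1 upstream of 2 (DAN1 and DAN4), against 1.14%, and the Rox1 core upstream of 2 (TIR2 and TIR3), against 4.73%. With 600 bases the sterol element stood upstream of 4, against 8.26%, and the Rox1 core upstream of 5, against 13.7%. Depth limits TIR2, TIR4, DAN4 and DAN1, whose values rest on 1 to 69 reads per library.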
